A study of Mus musculus with 6 samples.

Results

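The genes of the Eph/ephrin, Slit/Robo and netrin guidance systems were measured in the guts of mouse embryos that lack Ret, the receptor that enteric neural crest cells need to colonise the gut. They were taken by symbol as 13 ligands (Efna1 to Efna5, Efnb1 to Efnb3, Slit1 to Slit3, Ntn1 and Ntn4) and 23 receptors (the Epha, Ephb, Robo and Unc5 genes, Dcc and Neo1). All 36 had a line of their own among the 23233 gene lines of the deposited table. The samples were 3 Ret null guts, homozygous for a null allele of Ret, and 3 wildtype guts. All were taken at stage E10.5 on a C57BL/6J background from embryos that the series describes as male. Neither the deleted part of Ret, nor the number of guts in a sample, nor the litters of origin are stated in the labels.

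Ephrins are ligands held on the cell surface. A-type ephrins are anchored by a lipid and bind mainly EphA receptors, while B-type ephrins span the membrane and bind mainly EphB receptors and Epha4. Slits and netrins are secreted; Slits act through Robo receptors, and netrins attract cells through Dcc and Neo1 or repel them through the Unc5 receptors. In the embryonic gut, netrin and Dcc are known to draw crest cells toward the mucosa and pancreas, and in chick embryos Slit2 keeps trunk crest cells, which carry Robo receptors, out of the gut.

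The table gives 1 value per gene and genotype in FPKM (fragments scaled to transcript length and to the number of mapped fragments), made by the authors from the 3 samples of that genotype. No value per sample could therefore be shown, and the depth is unknown. Each log2 fold change is that of Ret null over wildtype and carries the standard error implied by the authors' test statistic (the fold change divided by the statistic). A gene is said to have risen or fallen where the authors' q-value (their adjusted p from Cuffdiff) was under 0.05. The smallest q of any tested line was 0.000775, at the smallest Cuffdiff p of 5e-05, and 5 guidance genes stood there. Genes at this q cannot be ranked by it. A stricter reading took the same statistic as a normal deviate and adjusted its two-sided p by Benjamini-Hochberg over all 13430 tested lines. That p is called the normal p here.

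Several facts about the samples bear on every comparison. Ret itself was at 0.0354 FPKM in Ret null guts and 8.80 FPKM in wildtype guts, as labelled (q = 0.00420 in the authors' deposited table). Xist, which is transcribed in female cells, was at 31.8 FPKM in Ret null guts and 0.136 FPKM in wildtype guts, which goes against the description of all embryos as male. The 4 Y-linked genes examined fell, standing between 3.25 and 18.1 FPKM in Ret null guts and between 6.47 and 29.7 FPKM in wildtype guts. Tissue markers also differed between the genotypes. Of 10 enteric crest and neuron markers, 9 fell, and their summed level was 49.97 FPKM in Ret null guts and 112 FPKM in wildtype guts. All 7 tested somite and skeletal muscle markers fell, with sums of 5.40 FPKM in Ret null guts and 83.0 FPKM in wildtype guts. The nephric duct and gonadal ridge list, with 5 genes tested, showed 4 falls and 1 rise (65.1 FPKM in Ret null and 85.1 FPKM in wildtype guts). In the other direction, 7 of 8 gut mesenchyme markers rose (528 FPKM in Ret null and 205 FPKM in wildtype guts), as did all 8 endoderm markers (242 FPKM in Ret null and 111 FPKM in wildtype guts) and all 6 liver bud markers (299 FPKM in Ret null and 18.1 FPKM in wildtype guts). Of 7 endothelial markers, 3 fell (151 FPKM in Ret null and 184 FPKM in wildtype guts). Spinal cord markers summed to 2.17 FPKM in Ret null guts and 1.59 FPKM in wildtype guts, 1 of 5 was tested and did not pass, and Olig2 was listed at 0 in both. The part that these differences in tissue and sex play in the values of the guidance genes was not tested. In whole guts, fewer cells of a type and less RNA per cell cannot be told apart.

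Of the 36 guidance genes, 28 were tested by the authors and 8 were not. Among the tested genes, 7 fell, 3 rose and 18 did not pass. The share that fell was 25%, beside 8.88% of all tested lines, and the share that rose was 10.7%, beside 5.69% of all tested lines. In either direction the share was 35.7%, beside 14.6% of all lines. The median log2 fold change of the tested guidance genes was -0.02, beside 0.01 over all tested lines, with 15 genes below 0 and 13 above. With the normal p, 2 guidance genes fell (Epha3 and Unc5c), where 2.78% of all tested lines did, and 1 rose (Efnb2), where 1.72% did. The other 7 calls were all of genes that passed only the authors' q. Among the called genes, the unadjusted 95% intervals of Efnb3, Epha1, Epha7 and Unc5b included no change. Those of Efnb2, Epha3, Ephb3, Slit2, Robo2 and Unc5c did not. The 8 untested genes were all under 1 FPKM in both genotypes, the highest being Ntn4 in Ret null guts (0.833 FPKM) and Dcc in wildtype guts (0.872 FPKM).

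In mm10 coordinates of the deposited table, the lines of the called genes span exons and introns of the following places. Among ligands, Efnb2 lies on chr8:8617439-8660773, Efnb3 on chr11:69554092-69560237 and Slit2 on chr5:47983155-48305778. Among Eph receptors, Epha1 has a locus of chr6:42358487-42380558 that it shares with the line of 2010310C07Rik, while RefSeq ends Epha1 at 42373314. Epha7 lies on chr4:28813145-28967499 and Ephb3 on chr16:21204795-21223304. Among Unc5 receptors, Unc5b lies on chr10:60762595-60831581 and Unc5c on chr3:141465564-141834922. Epha3 and Robo2 are placed where they are described.

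**Figure D1:**
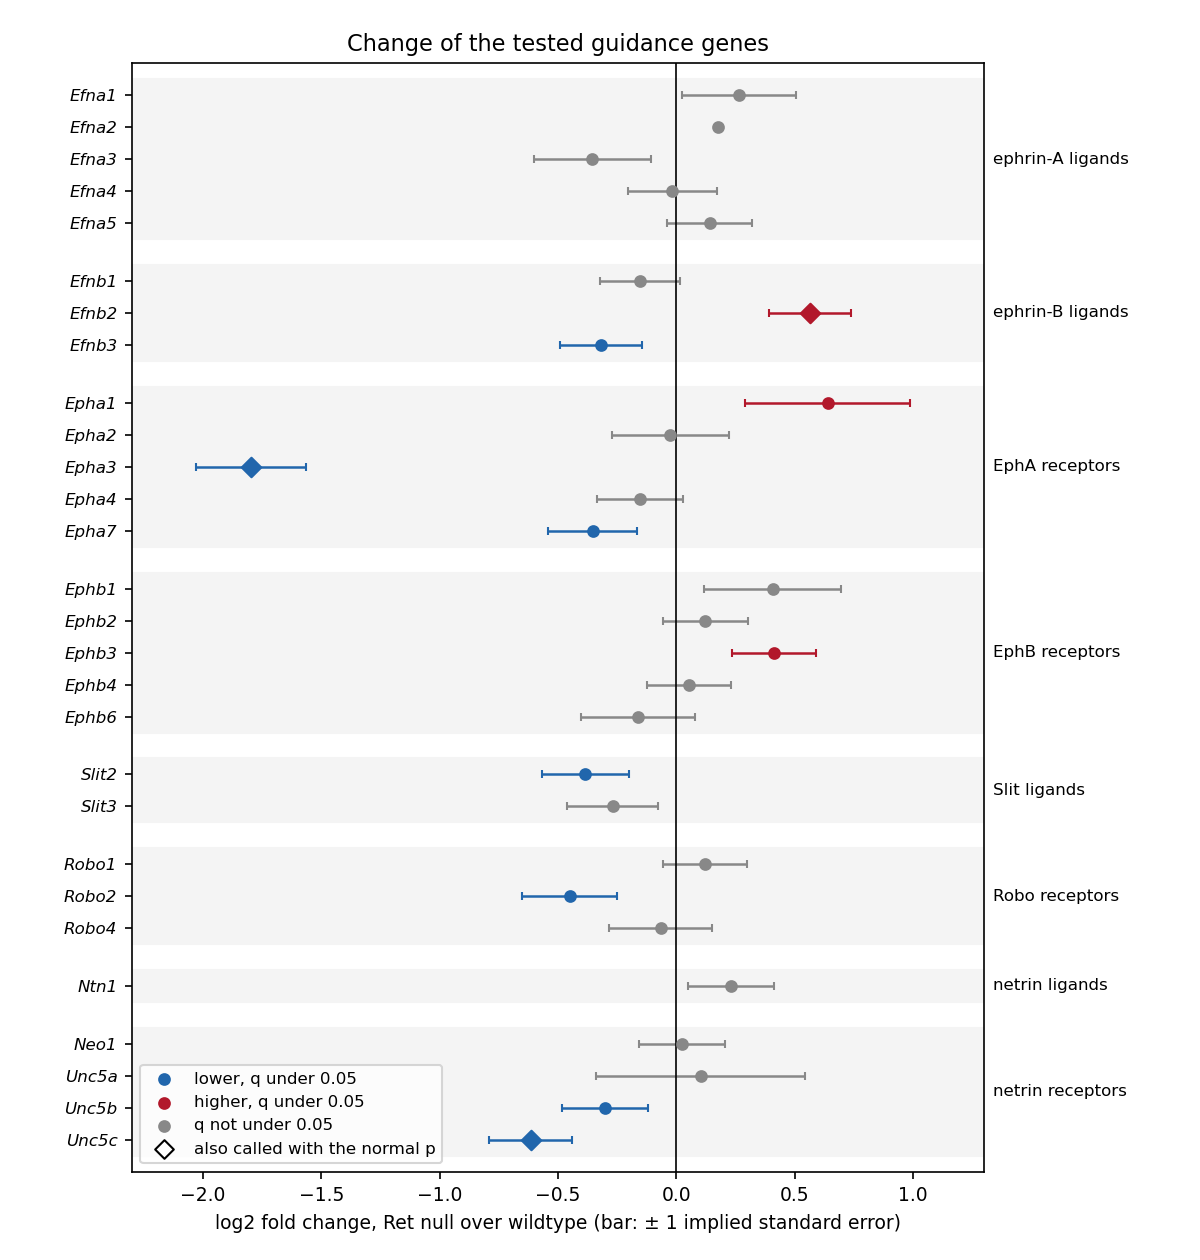
Log2 fold change of Ret null over wildtype FPKM for the tested guidance genes, ordered by family, with bars of 1 implied standard error on either side, colours for genes that fell, rose or did not pass at the authors' q of 0.05, and diamonds for genes also called with the normal p. Epha3 lies far below the others at -1.80, and the other called genes lie between -0.62 and 0.64. The bar of Efna2, with a standard error of 3.56, is not drawn.

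Among ligands, 2 of 11 tested genes fell and 1 rose, a share called of 27.3%. Among receptors, 5 of 17 tested genes fell and 2 rose, a share of 41.2%. Both stand beside 14.6% of all tested lines, as do the counts of single families given below, which rest on few genes. The median log2 fold change was -0.02 for ligands and -0.03 for receptors. The difference between ligands and receptors was not tested. Summed over each kind, ligands stood at 243 FPKM in Ret null guts and 237 FPKM in wildtype guts, and receptors at 258 FPKM in Ret null guts and 271 FPKM in wildtype guts. Genes of both kinds moved in both directions beneath these sums.

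**Figure D2:**
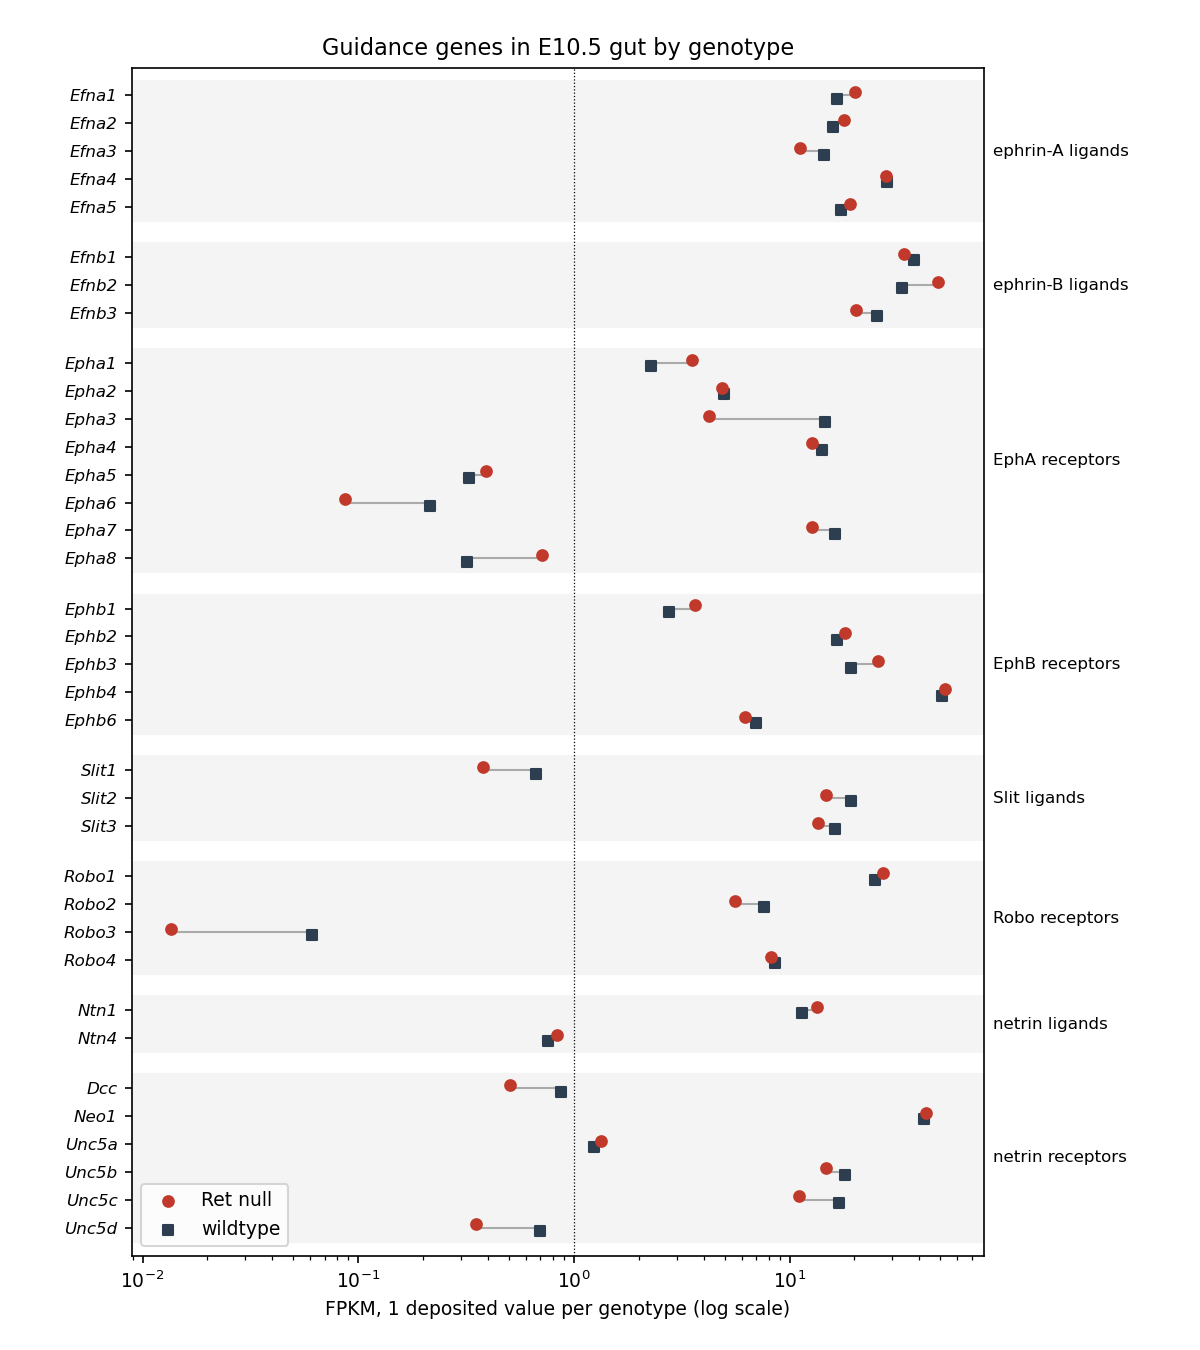
FPKM of each guidance gene on a log axis, grouped by family, with the Ret null value as a circle above the wildtype square and a dotted line at 1 FPKM. Ephb4 has the highest wildtype value at 50.8 FPKM, and the 8 genes under 1 FPKM in both genotypes were not tested.

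The 3 genes called by both p-values were the receptors Epha3 and Unc5c, which fell, and the ligand Efnb2, which rose. Their promoters are shown so that base composition at these start sites can be compared. Each is the 250 bases before the RefSeq start in GRCm38.p6 (the build the authors' files call mm10), read 5′ to 3′ on the gene's strand, with every CG dinucleotide in capitals. For Epha3 the window is chr16:63864176-63864425 (minus strand), for Unc5c chr3:141465314-141465563 (plus strand) and for Efnb2 chr8:8661243-8661492 (minus strand). The RefSeq starts lie 18 bases from the start in the deposited table for Epha3, 0 bases for Unc5c and 469 bases for Efnb2.
Epha3: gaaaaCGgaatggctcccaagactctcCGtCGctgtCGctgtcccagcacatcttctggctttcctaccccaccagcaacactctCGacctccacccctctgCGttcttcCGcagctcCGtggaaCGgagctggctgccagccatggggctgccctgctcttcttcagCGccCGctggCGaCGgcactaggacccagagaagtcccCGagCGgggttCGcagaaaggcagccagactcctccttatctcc
Unc5c: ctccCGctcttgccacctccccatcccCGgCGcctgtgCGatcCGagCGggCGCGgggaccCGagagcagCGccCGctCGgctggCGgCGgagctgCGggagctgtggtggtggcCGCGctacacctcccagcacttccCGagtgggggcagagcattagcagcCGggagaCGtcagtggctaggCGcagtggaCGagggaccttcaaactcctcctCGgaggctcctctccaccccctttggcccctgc
Efnb2: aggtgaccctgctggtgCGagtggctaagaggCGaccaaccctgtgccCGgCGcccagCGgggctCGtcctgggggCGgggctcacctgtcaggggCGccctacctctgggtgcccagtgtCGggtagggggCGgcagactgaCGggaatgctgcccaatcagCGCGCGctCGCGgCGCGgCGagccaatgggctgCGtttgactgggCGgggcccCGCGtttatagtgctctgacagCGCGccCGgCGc
Epha3 had 16 CG dinucleotides at a GC content of 62.8%, Unc5c 23 at 71.2% and Efnb2 27 at 72%. The median of the tested genes with a window was 16 CG dinucleotides and 60.4% GC. Both strands were searched for 5 short motifs. A GC box, spelled GGGCGG, occurred 3 times for Efnb2, and 60.3% of the windows of tested genes held one. A TATA box, spelled TATAAA, occurred 1 time for Efnb2, and 6.28% of tested genes' windows held one. An E-box, spelled CANNTG, also occurred 1 time for Efnb2, beside 56.5% of tested genes' windows. The SOX core, spelled ACAAAG, was in none of the 3 windows and in 11.8% of those of tested genes. The same holds for the RBPJ core, spelled TGGGAA, which was in 20.7% of the windows of tested genes. The windows of Epha3 and Unc5c held 0 matches to any of the 5. A match is a description of the letters and was not tied to any factor.

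None of the 5 A-type ephrins passed the test. Summed, they stood at 96.4 FPKM in Ret null guts and 92.7 FPKM in wildtype guts, and 0 of 5 passed either Cuffdiff's q or the normal p, while Efna3 alone had an unadjusted deposited p under 0.05 (0.0364 in the authors' deposited table). Efna4 was the highest, at 28.1 FPKM in Ret null guts and 28.4 FPKM in wildtype guts (log2 fold change -0.02 ± 0.19). Efna1, first found as a gene induced in endothelial cells, was at 20.03 FPKM in Ret null guts and 16.7 FPKM in wildtype guts (0.26 ± 0.24). Efna5, known for setting up topographic maps of axons, was at 19.1 FPKM in Ret null guts and 17.3 FPKM in wildtype guts (0.14 ± 0.18). These differences lie within about 1 standard error, and Efna3, at 11.2 FPKM in Ret null guts and 14.4 FPKM in wildtype guts (-0.36 ± 0.25), was the farthest from 0. Efna2 was at 17.9 FPKM in Ret null guts and 15.9 FPKM in wildtype guts, but its line covers a merged locus shared by 47 lines, and its standard error of 3.56 leaves a 95% interval of -6.81 to 7.16.

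Of the 3 B-type ephrins, 1 rose, 1 fell and 1 did not pass, and with the normal p the rise of Efnb2 was the only call. Efnb2, the ligand that marks arteries and binds EphB receptors and Epha4, was at 48.9 FPKM in Ret null guts and 33.1 FPKM in wildtype guts, 1.48-fold higher (0.56 ± 0.17, q = 0.000775 in the authors' deposited table and normal p 0.0270). It became the highest ephrin in Ret null guts, with 47.4% of the summed B-type ephrin level there and 34.4% in wildtype guts. Efnb3, a ligand of the midline of the nervous system, was at 20.3 FPKM in Ret null guts and 25.4 FPKM in wildtype guts, 1.25-fold lower (-0.32 ± 0.17, q = 0.0285 in the authors' deposited table). For Efnb3 the unadjusted 95% interval of -0.66 to 0.02 included no change. Efnb1, an X-linked ligand, was the highest ephrin in wildtype guts at 37.8 FPKM, against 34.0 FPKM in Ret null guts (-0.15 ± 0.17, q = 0.427 in the authors' deposited table). The summed level of the 3 was 103 FPKM in Ret null guts and 96.2 FPKM in wildtype guts. By the sums given above, gut mesenchyme, endoderm and liver bud markers were higher in Ret null guts, as was Efnb2. Endothelial, crest and neuron, somite and muscle, and nephric and gonadal ridge markers were lower. Of 7 endothelial markers, 3 fell, none of them with the normal p. A link between Efnb2 and these lists was not tested.

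Epha3, a receptor that binds A-type ephrins, Efna5 above all, had the largest change of the guidance genes tested. It was at 4.22 FPKM in Ret null guts and 14.6 FPKM in wildtype guts, 3.47-fold lower (-1.80 ± 0.23, q = 0.000775 in the authors' deposited table, normal p 4.76e-12). Its gene lies on chr16:63545218-63864157 (minus strand). It made up 10.7% of the summed EphA level in Ret null guts and 27.5% in wildtype guts. Epha7, an A-type receptor known for guiding axons and shaping the neural tube, was at 12.7 FPKM in Ret null guts and 16.3 FPKM in wildtype guts (-0.35 ± 0.19, q = 0.0125 in the authors' deposited table). The unadjusted 95% interval of Epha7, -0.72 to 0.015, included no change. Without Epha3, the summed EphA level was 35.1 FPKM in Ret null guts and 38.6 FPKM in wildtype guts, and with it 39.3 FPKM in Ret null guts and 53.2 FPKM in wildtype guts. Beside Epha3 and Epha7, 9 of 10 crest and neuron markers fell, as did all 7 tested somite and muscle markers and 4 of 5 tested nephric and gonadal ridge markers. Ednrb, of the crest list, did not pass (17.5 FPKM in Ret null guts and 18.8 FPKM in wildtype guts), and Osr1, of the nephric list, rose (34.8 FPKM in Ret null guts and 18.8 FPKM in wildtype guts).

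Of the other EphA receptors, 2 did not pass and 1 rose. Epha4, which takes both classes of ephrin, was at 12.8 FPKM in Ret null guts and 14.2 FPKM in wildtype guts (-0.15 ± 0.18) and Epha2, an epithelial receptor, at 4.88 FPKM in Ret null guts and 4.97 FPKM in wildtype guts (-0.03 ± 0.25), and neither passed. Epha1, an epithelial receptor, rose: at 3.53 FPKM in Ret null guts and 2.27 FPKM in wildtype guts it was 1.56-fold higher (0.64 ± 0.35, q = 0.0145 in the authors' deposited table). Its unadjusted 95% interval of -0.04 to 1.32 included no change. The exons of Epha1 overlap those of Zyx on the opposite strand, which rose too (68.1 FPKM in Ret null guts and 55.9 FPKM in wildtype guts). The labels do not say whether counting used strand, so reads of the pair cannot be told apart. Efna3, Efna4, Epha6, Ephb1, Ephb4, Unc5a and Unc5c also have an exon that overlaps a gene on the other strand. Epha5 (0.390 FPKM in Ret null and 0.328 FPKM in wildtype guts), Epha6 (0.0873 FPKM in Ret null and 0.216 FPKM in wildtype guts) and Epha8 (0.714 FPKM in Ret null and 0.320 FPKM in wildtype guts), receptors best known from neurons, were not tested.

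Among EphB receptors, 1 of 5 rose. Ephb3, a receptor of the intestinal epithelium, was at 25.8 FPKM in Ret null guts and 19.4 FPKM in wildtype guts, 1.33-fold higher (0.41 ± 0.18, q = 0.000775 in the authors' deposited table). Ephb1, a receptor of neurons and vessels, was at 3.65 FPKM in Ret null guts and 2.75 FPKM in wildtype guts (0.41 ± 0.29, q = 0.0857 in the authors' deposited table) and did not pass. Ephb4, the venous receptor of Efnb2, was the highest guidance gene in both genotypes and did not pass, at 52.7 FPKM in Ret null guts and 50.8 FPKM in wildtype guts (0.05 ± 0.18, 95% interval -0.30 to 0.40). Ephb2 and Ephb6 did not pass either, at 18.0 and 6.23 FPKM in Ret null guts and 16.5 and 6.96 FPKM in wildtype guts in that order of gene. The summed EphB level was 106 FPKM in Ret null guts and 96.5 FPKM in wildtype guts. Markers of endoderm, the epithelium in which Ephb3 is known to act, rose beside it. Of the EphA genes described above as epithelial receptors, Epha1 rose and Epha2 did not pass. A link between these genes and the endoderm markers was not tested.

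Of the Slit ligands, 1 of 2 tested fell. Slit2, a repellent of many axons and migrating cells, was at 14.8 FPKM in Ret null guts and 19.3 FPKM in wildtype guts, 1.31-fold lower (-0.38 ± 0.18, q = 0.00145 in the authors' deposited table). Slit3, a close relative that acts on diaphragm and heart, was at 13.6 FPKM in Ret null guts and 16.3 FPKM in wildtype guts (-0.27 ± 0.19, q = 0.0807 in the authors' deposited table) and did not pass. Slit1, a Slit of the nervous system, was at 0.377 FPKM in Ret null guts and 0.664 FPKM in wildtype guts and was not tested. Of their receptors, Robo2, on chr16:73892306-74410912 (minus strand), was at 5.59 FPKM in Ret null guts and 7.65 FPKM in wildtype guts, 1.37-fold lower (-0.45 ± 0.20, q = 0.000775 in the authors' deposited table). Robo1 lies next to it, 846 kb away with 0 gene lines between, and was at 27.1 FPKM in Ret null guts and 24.97 FPKM in wildtype guts (0.12 ± 0.18, 95% interval -0.23 to 0.47). Robo1 carried 66.3% of the summed Robo level in Ret null guts and 60.6% in wildtype guts. Robo4, an endothelial receptor, was at 8.17 FPKM in Ret null guts and 8.55 FPKM in wildtype guts (-0.07 ± 0.22). Robo3, the receptor of commissural axons, was listed at 0.0135 FPKM in Ret null guts and 0.0610 FPKM in wildtype guts, the lowest guidance gene in both.

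In the netrin system, the tested ligand did not pass and 2 of 3 tested Unc5 receptors fell. Ntn1, the main netrin of the gut epithelium, was at 13.4 FPKM in Ret null guts and 11.5 FPKM in wildtype guts (0.23 ± 0.18, q = 0.160 in the authors' deposited table). Ntn4, a laminin-binding netrin, was at 0.833 FPKM in Ret null guts and 0.762 FPKM in wildtype guts and was not tested. Neo1, the Dcc relative that also binds RGM proteins, was at 42.9 FPKM in Ret null guts and 42.2 FPKM in wildtype guts (0.02 ± 0.18, 95% interval -0.33 to 0.38). Dcc itself was at 0.508 FPKM in Ret null guts and 0.872 FPKM in wildtype guts and was not tested. Neo1 carried 60.5% of the summed netrin receptor level in Ret null guts and 52.6% in wildtype guts.

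Unc5c, a repellent netrin receptor, was at 11.1 FPKM in Ret null guts and 17.0 FPKM in wildtype guts, 1.53-fold lower (-0.62 ± 0.18, q = 0.000775 in the authors' deposited table, normal p 0.0135). Unc5b, a receptor of vessels and other cells, was at 14.7 FPKM in Ret null guts and 18.2 FPKM in wildtype guts, 1.23-fold lower (-0.30 ± 0.18, q = 0.0309 in the authors' deposited table). For Unc5b the unadjusted 95% interval of -0.65 to 0.05 included no change. The summed level of the 4 Unc5 genes was 27.5 FPKM in Ret null guts and 37.1 FPKM in wildtype guts. Unc5a, at 1.34 FPKM in Ret null guts and 1.25 FPKM in wildtype guts (0.10 ± 0.44), did not pass, and Unc5d, at 0.353 FPKM in Ret null guts and 0.693 FPKM in wildtype guts, was not tested. Beside these genes, 9 of 10 crest and neuron markers (all but Ednrb) and all 7 tested somite and muscle markers fell. So did 4 of 5 tested nephric and gonadal ridge markers, while Osr1 rose. A link between the Unc5 genes and these lists was not tested.

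**Figure D3:**
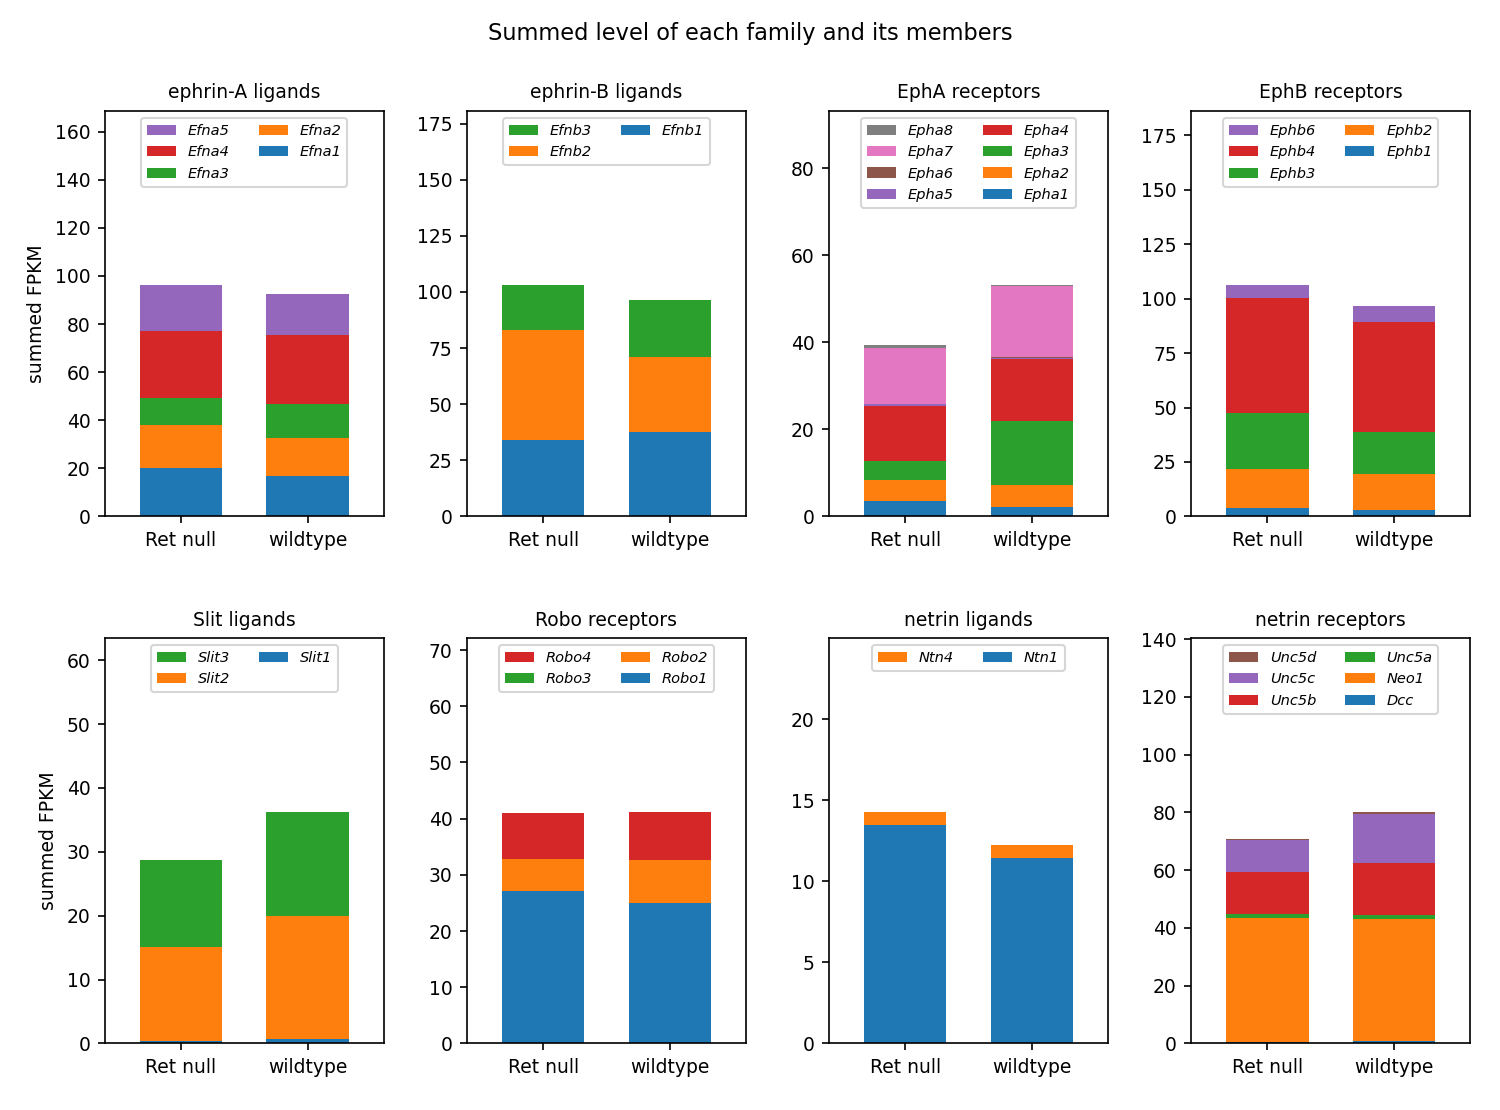
Summed FPKM of each guidance family, stacked by gene, with the Ret null bar left of the wildtype bar. EphA receptor, Slit ligand and netrin receptor sums were lower in Ret null guts. They stood at 39.3, 28.7 and 70.9 FPKM in Ret null guts and 53.2, 36.3 and 80.2 FPKM in wildtype guts, in that order. Sums of A-type ephrins, B-type ephrins, EphB receptors and netrin ligands were higher in Ret null guts. The Robo receptor sum was 40.9 FPKM in Ret null guts and 41.2 FPKM in wildtype guts. Axes differ between families.

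**Figure D4:**
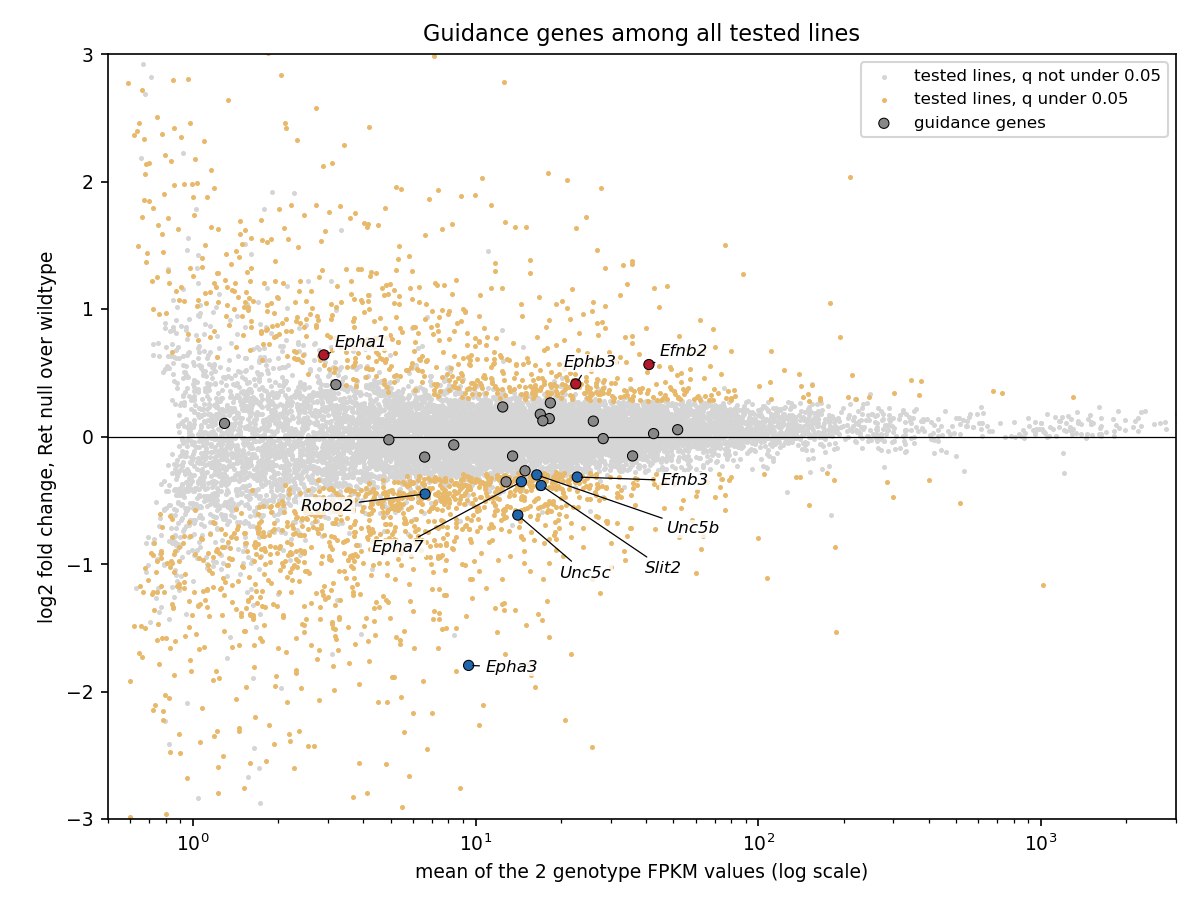
Log2 fold change of Ret null over wildtype against the mean of both FPKM values (log axis) for the tested lines, with guidance genes as large points, blue where they fell, red where they rose and grey where they did not pass. Most called guidance genes lie at the edge of the cloud of uncalled lines at their level, and Epha3 lies clear of it. Lines with a 0 value or a change beyond 3 are not drawn.

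Other surface genes of these systems, from a list of 19 of which 14 were tested, showed 2 falls and 2 rises, while 10 did not pass. The share called was 28.6%, beside 14.6% of all tested lines, and the median log2 fold change was -0.01. Both rises were of ligands of Neo1. Rgma was at 19.8 FPKM in Ret null guts and 13.8 FPKM in wildtype guts (0.52 ± 0.20), and Rgmb at 16.7 FPKM in Ret null guts and 11.2 FPKM in wildtype guts (0.57 ± 0.20), both at q = 0.000775 in the authors' deposited table. Both falls were of FLRT proteins, which bind Unc5 receptors. Flrt2 was at 15.0 FPKM in Ret null guts and 21.3 FPKM in wildtype guts (-0.51 ± 0.17, q = 0.000775 in the authors' deposited table), and Flrt3 at 12.9 FPKM in Ret null guts and 17.3 FPKM in wildtype guts (-0.43 ± 0.21, q = 0.00517 in the authors' deposited table). None of these 4 passed with the normal p.

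Of 36 intracellular effectors, all tested, 3 fell and 2 rose, with a median of -0.05. The share called was 13.9%, near the 14.6% of all lines, and none of these 5 calls passed with the normal p. Trio, a signalling protein downstream of Dcc, was at 13.2 FPKM in Ret null guts and 18.9 FPKM in wildtype guts (-0.51 ± 0.18, q = 0.000775 in the authors' deposited table). Mycbp2, a ubiquitin ligase of axons, was at 7.34 FPKM in Ret null guts and 9.92 FPKM in wildtype guts (-0.43 ± 0.18, q = 0.000775 in the authors' deposited table), and Abl2, a kinase of the Robo pathway, was at 5.65 FPKM in Ret null guts and 7.27 FPKM in wildtype guts. The actin regulators Pak1 and Vasp (Vasp named after its value was seen) rose, at 14.9 and 47.9 FPKM in Ret null guts and 11.6 and 39.3 FPKM in wildtype guts in that order of gene.

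**Figure D5:**
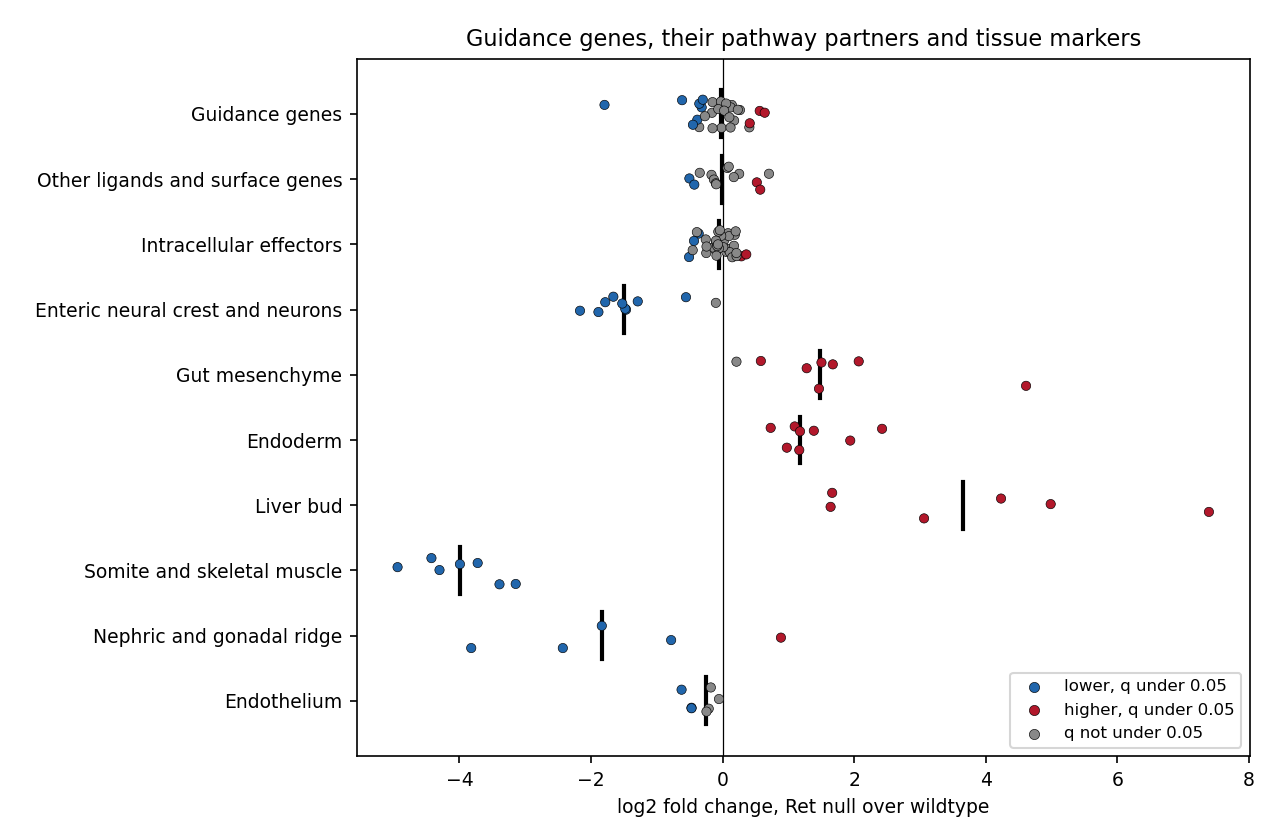
Log2 fold change of Ret null over wildtype for each tested gene of the guidance genes, other surface genes, intracellular effectors and tissue marker lists, with a bar at the median of each list; vertical scatter only separates points. The guidance genes centre at -0.02, whereas crest markers centre at -1.50 and gut mesenchyme markers at 1.48.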

How the data were processed

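RNA of whole guts was made into libraries from poly(A) selected RNA, per the labels' protocols, and read as 75 bp pairs. The submitters' processing notes list Picard, TopHat2, Cufflinks, Cuffdiff and mm10 without versions. The annotation and settings were not given in the sources used here. For each genotype the deposited table holds 1 FPKM value that the authors computed over 3 samples, so samples could not be compared and depth is unknown. Its header letters w and h were read as wildtype and homozygous null, which the Ret value matches. The p-value, q-value, log2 fold change and test statistic (a score) are the authors' own, per the file headers. Of 23234 lines, 1 held 2 records run together and was left out.

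FPKM values were divided and logged anew to give log2 fold changes (largest difference from the deposited column for the guidance genes, 7.58e-06). The test is the authors' q under 0.05, as planned for a table with 1 value per genotype. The samples may not be separate litters, so the p-values may not measure spread between litters. The normal p was computed with scipy 1.17.1 and statsmodels 0.14.6 under Python 3.11.15 and tested on simulated data. Every guidance gene is named; from each other list of these systems, up to 4 called genes by smallest q and then largest change, to which Vasp was added after its value was seen. The guidance genes and gene lists were chosen with earlier results of these data known. Promoters are from RefSeq GRCm38.p6 and were matched by symbol for 31 of 36 genes; exon overlaps are from GENCODE M21. Alternatives were other q thresholds, a 1.5-fold minimum, the normal p, a filter at 1 FPKM, 1 FPKM added, the deposited log2 column and centring on the median.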

Additional observations from a re-analysis of the deposited data

How the results depend on the processing

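With 1 FPKM added, the deposited log2 column or centring, all 28 tested guidance genes kept their direction. These alternatives could not have reversed one, so this is no check of the directions. Adding 1 FPKM to both values keeps the sign, and the deposited column is the same ratio. Centring moved each value by 0.01, less than the smallest change among them (-0.0165 for Efna4). The calls depended on the threshold. For q under 0.01, q under 0.1 and the 1.5-fold minimum, the share of all tested lines called was not computed. The counts at these settings therefore cannot be set beside it. At q under 0.01, 4 guidance genes fell (1 ligand, 3 receptors) and 2 rose (1 ligand, 1 receptor); Efnb3, Epha1, Epha7 and Unc5b were lost. With a 1.5-fold minimum, 2 fell (0 ligands, 2 receptors) and 1 rose (0 ligands, 1 receptor); Efnb2, at 1.48-fold, and 6 others were lost, leaving Epha3, Unc5c and Epha1. With the normal p, 2 fell (0 ligands, 2 receptors) and 1 rose (1 ligand, 0 receptors), and Efnb3, Epha1, Epha7, Ephb3, Slit2, Robo2 and Unc5b were lost, with adjusted p from 0.245 to 0.655. At q under 0.1, Slit3 and Ephb1 were added. A filter at 1 FPKM, which kept 13321 of the 13430 tested lines, changed no call. Adding 1 FPKM, the deposited log2 column and centring by 0.01 leave the authors' q untouched, so they could not change one. No paired analysis was possible because the table holds 1 value per genotype; leaving out a replicate was not possible for the same reason.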

Other observations

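Some guidance genes lie near each other, and differences between neighbours were not tested. Efna1, Efna3 and Efna4 lie in a row on chromosome 3, with gaps of 33999 and 10513 bases and 0 lines between them, and had log2 fold changes of 0.26, -0.36 and -0.02, none of which passed. Epha6, Epha3, Robo1 and Robo2 lie farther apart along chromosome 16, with gaps of 2.94, 8.80 and 0.846 Mb in that order. Of these, Epha3 and Robo2 fell, Robo1, between them, did not pass, and Epha6 was not tested. Ephb3, on the same chromosome and 38.4 Mb from Epha6, rose. Epha1 and Ephb6 share chromosome 6 with Ret, at 75.8 and 76.5 Mb from it.

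Over the 31 guidance genes with a promoter window, the median GC content was 65.6% and the median number of CG dinucleotides was 19, beside 60.4% and 16 for tested genes. A GC box was in 22 of them (71.0%), beside 60.3% of tested genes, and an E-box in 13 (41.9%), beside 56.5%. These shares are descriptions and were not tested.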
